A study of Mus musculus with 8 samples.

Results

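The receptors and SMAD proteins that carry a bone morphogenetic protein (BMP) signal from the cell surface to the nucleus are described here at the level of their mRNA, with and without BMP7. The 10 genes are Bmpr1a, Bmpr1b, Bmpr2, Acvr1, Acvr2b, Acvrl1, Eng, Smad1, Smad4 and Smad5. Every probe set whose annotation in the deposited table gives the symbol of just 1 of these genes was kept, which gave 21 of the 22690 probe sets and 10 of the 13243 genes named on the array. A probe set is a group of short oligonucleotides that together report 1 transcript, and several can belong to the same gene. The samples were cultures of C3H10T1/2, an established mouse mesenchymal line of embryonic origin, grown to full confluence and then kept for 3 days with vehicle or with 3.3 nM BMP7. Total RNA of 4 samples per group was hybridised to the Affymetrix Mouse Genome 430A array, with a separate array for each. The arrays are called Vehicle 1 to 4 and BMP7 1 to 4 after the titles of the samples. Nothing in the labels states that a group's samples are independent cultures, and the p-values below therefore reflect sample-to-sample spread that could be technical.

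A BMP dimer binds a complex of type I and type II receptors, both of which are serine/threonine kinases. The type II receptor phosphorylates the type I receptor, which in turn phosphorylates the receptor-regulated SMADs at their carboxyl terminus. These join Smad4, the SMAD shared with the transforming growth factor beta (TGF-beta) and activin branches, and the complex enters the nucleus and regulates target genes such as the Id family. Among the genes described, Bmpr1a, Bmpr1b, Acvr1 and Acvrl1 encode type I receptors, Bmpr2 and Acvr2b type II receptors, Eng a co-receptor, and Smad1 and Smad5 receptor-regulated SMADs. In mesenchymal progenitors this pathway is known for steering cells towards cartilage, bone and fat.

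The deposited values are MAS5 signals, an intensity on a linear scale that the authors had scaled to a common level on every array. All 11 mesenchymal marker genes, Col1a1, Col1a2 and Vim among them, lay above the filter on low values described below, while 1 of 10 endothelial markers (Kdr) and none of 4 epithelial markers did. Of 7 macrophage markers 4 lay above it, Csf1r, Adgre1, Cd14 and Lyz2, and the defining markers Ptprc and Itgam did not. The summed endothelial signal was 1679 to 2002 on the vehicle arrays and 1599 to 2336 on the BMP7 arrays, and the summed macrophage signal 2837 to 3962 and 2817 to 3969, so that neither sum separated the groups. The summed mesenchymal signal did, at 274210 to 392438 on the vehicle and 215250 to 259070 on the BMP7 arrays, with 1 of the 11 genes called (Pdgfra, chosen after its value was seen). The brightest genes, such as Col1a1, Col1a2 and Vim, carried most of that sum, and its highest value came from Vehicle 3. Some of the 11 genes, such as Thy1 and Twist1, overlapped between the groups, and others, such as Col1a1 and Col1a2, did not. The part of the mesenchymal signal in the results below was not tested. In such bulk RNA fewer cells of a type and less RNA per cell cannot be told apart. Vehicle 3 stood apart. Its Actb 3'/5' signal ratio, which rises when RNA is degraded, was 6.55. It was 1.17 to 1.40 on the other vehicle arrays and 1.17 to 1.19 on the BMP7 arrays. The Gapdh ratio was 3.36 on Vehicle 3, 0.752 to 1.35 on the other vehicle arrays and 0.725 to 0.797 on the BMP7 arrays. Vehicle 1 and Vehicle 2 also lay above all BMP7 arrays in both ratios. Leaving out Vehicle 3 therefore does not even out these ratios between the groups. The added hybridisation controls averaged 13.02 on the log2 scale on Vehicle 3, 11.65 to 12.32 on the other vehicle arrays and 11.40 to 11.68 on the BMP7 arrays. Values without Vehicle 3 are given beside many of the results below.

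After 3 days of BMP7 no receptor or signal-carrying SMAD passed the test in either direction. Low probe sets were filtered out below the 40th percentile of mean log2(signal + 16) over the 8 arrays, near a signal of 325, and 18 probe sets of 7 genes remained. In limma, with p-values adjusted by Benjamini-Hochberg over all 13576 tested probe sets and a threshold of 0.05, 0 of these 18 were called, where 3.13% of all tested probe sets were. At an unadjusted p under 0.05 there were 5 (27.8%, against 21.8% of all tested probe sets). The deposited p-values of the authors, adjusted in the same way, called 0 of the 18 and 0.0295% of all tested probe sets, so that this count says little. Unadjusted, 2 of the 18 were under 0.05, against 15.7% of all tested probe sets. The log2 fold changes of the 18 lay between -0.86 and 1.19, with a median of 0.30 beside 0.04 for all tested probe sets. Of the 18, which belong to 7 genes, 14 had a higher and 4 a lower mean with BMP7. Without Vehicle 3, 11 were higher, and the median was 0.13 beside 0.02 for all tested probe sets. Their standard errors ran from 0.15 to 0.54, and a missed threshold does not show equal levels.

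**Figure D1:**
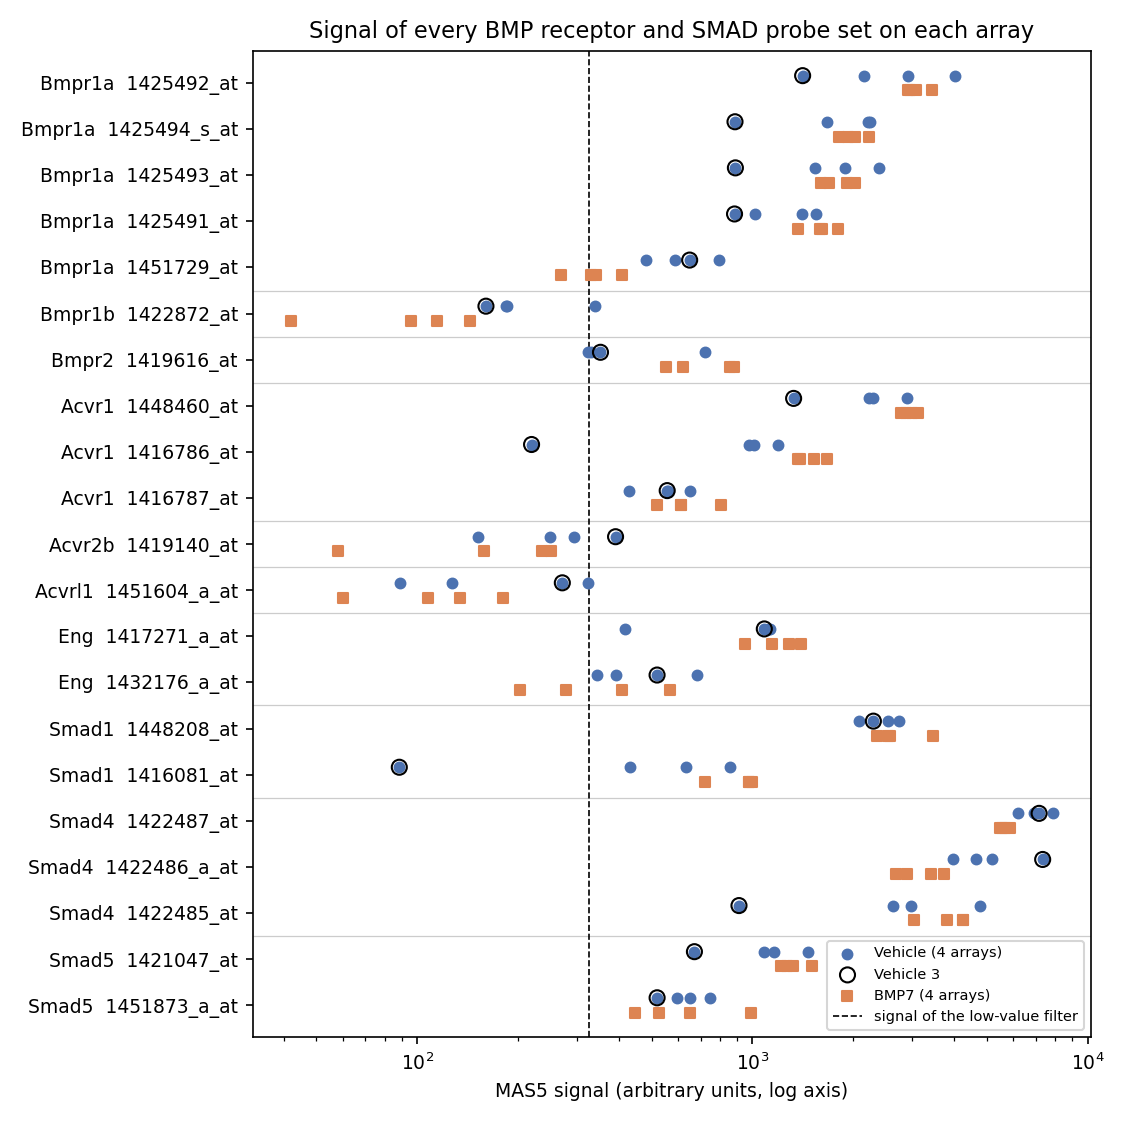
MAS5 signal (horizontal log axis) of each of the 21 probe sets on each array, with blue circles for vehicle, orange squares for BMP7, a ring around Vehicle 3 and a dashed line at the signal of the filter, about 325. The groups overlap for most probe sets, and Vehicle 3 is the lowest array for several of them, such as Acvr1 1416786_at at 219 and Smad1 1416081_at at 88.4.

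Other genes of the same pathway did respond on these arrays. The list of neighbours covers further receptors and SMADs, regulators, nuclear partners and known targets, and like the 10 genes it was chosen with earlier results of these data known, so its counts describe the response and do not support it independently. Of its 45 tested genes 8 rose and 1 fell (20.0%, against 3.30% of all 8374 tested genes, 1.56% higher and 1.73% lower), with a median log2 fold change of 0.09 beside 0.00 for all genes. Smad6, which encodes an inhibitory SMAD that competes with the signal-carrying ones, had 835, 614.5, 512.5 and 581 on Vehicle 1 to 4 and 5338.5, 6468, 5810.2 and 7711 on BMP7 1 to 4. The groups lay far apart, and Smad6 rose 9.81-fold (log2 fold change 3.29, 95% interval 2.84 to 3.75, adjusted p 5.53e-05 in limma). Smad7, the other inhibitory SMAD gene, rose 2.90-fold from 858 ± 246 to 2502 ± 598 (SD, n = 4; adjusted p 0.00885 in limma). Of the other SMAD genes, Smad2 and Smad3, which serve TGF-beta and activin, had log2 fold changes of 0.68 and 0.22 (adjusted p 0.248 and 0.779), and Smad9 lay under the filter.

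Among 6 tested parallel receptors and cofactors 1 fell and none rose. Tgfbr2, the type II receptor of TGF-beta, averaged 11388 ± 2869 without and 4241 ± 1360 with BMP7, and so fell 2.71-fold (limma, adjusted p 0.0128). Its call was lost without BMP7 2, BMP7 3 or BMP7 4 (highest adjusted p 0.0626). Acvr2a, another type II receptor that can bind BMPs, averaged 850.05 without and 645 with BMP7 (adjusted p 0.300), and the activin type I receptor gene Acvr1b 1229 and 1301 (adjusted p 0.822). Of 22 tested regulators of receptors and SMADs 2 rose and none fell. The proprotein convertase gene Pcsk6 went from 393 ± 156 to 1337 ± 211 (3.47-fold, adjusted p 0.0101 in limma), and Bambi, a pseudoreceptor without a kinase domain, from 1109 ± 631 to 3412 ± 901 (3.39-fold, adjusted p 0.0385). Without Vehicle 3 the log2 fold change of Pcsk6 was 1.55 in place of 1.80 and that of Bambi 1.45 in place of 1.76, and both passed. Pcsk6 lost its call without BMP7 2 (adjusted p 0.0506). Bambi lost it when Vehicle 1 or a single BMP7 array, whichever it was, was left out (adjusted p up to 0.139), and with no filter on low values (adjusted p 0.0505). None of the 5 tested nuclear partners passed limma's test, and 1 had an unadjusted p under 0.05.

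Of 8 tested direct targets 4 rose and none fell. The repressor gene Hey1 rose 11.1-fold (log2 fold change 3.48 ± 0.29 SE), and the helix-loop-helix inhibitor genes Id4 and Id3 rose 7.17-fold and 2.57-fold. On the vehicle arrays Hey1 gave 58.4 to 134.1 and Id4 158.6 to 356.7, against a filter near 325. Both genes were tested only because their BMP7 arrays lifted the mean over the filter. Their place in the count therefore adds no support, and their folds rest on low vehicle signals. The remaining gene, named after its value was seen, was Id1, whose mean was 3595 without and 6946 with BMP7 (limma, adjusted p 0.0492). Id1 lost its call with a pseudocount of 1, without the intensity trend and with no filter on low values. It also lost it when Vehicle 1, Vehicle 2 or a single BMP7 array, whichever it was, was left out. In each of these settings the other named genes accounted for all called neighbours. The intervals of the 8 genes named here and those of the 18 receptor and SMAD probe sets are shown in the plot of fold changes. The upper bound on the log2 scale was under 2 for 17 of the 18 and 2.38 for Smad1 1416081_at. The lower bounds of Smad6 and Hey1 were both 2.84, that of Hey1 on the low vehicle signals given above. The other named genes left no such gap. The intervals of Id3 (0.96 to 1.76), Smad7 (1.01 to 2.07), Pcsk6 (1.16 to 2.43) and Bambi (0.90 to 2.62) overlapped some of the 18. So did those of Id4 (2.26 to 3.43) and Tgfbr2 (-1.97 to -0.90).

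**Figure D2:**
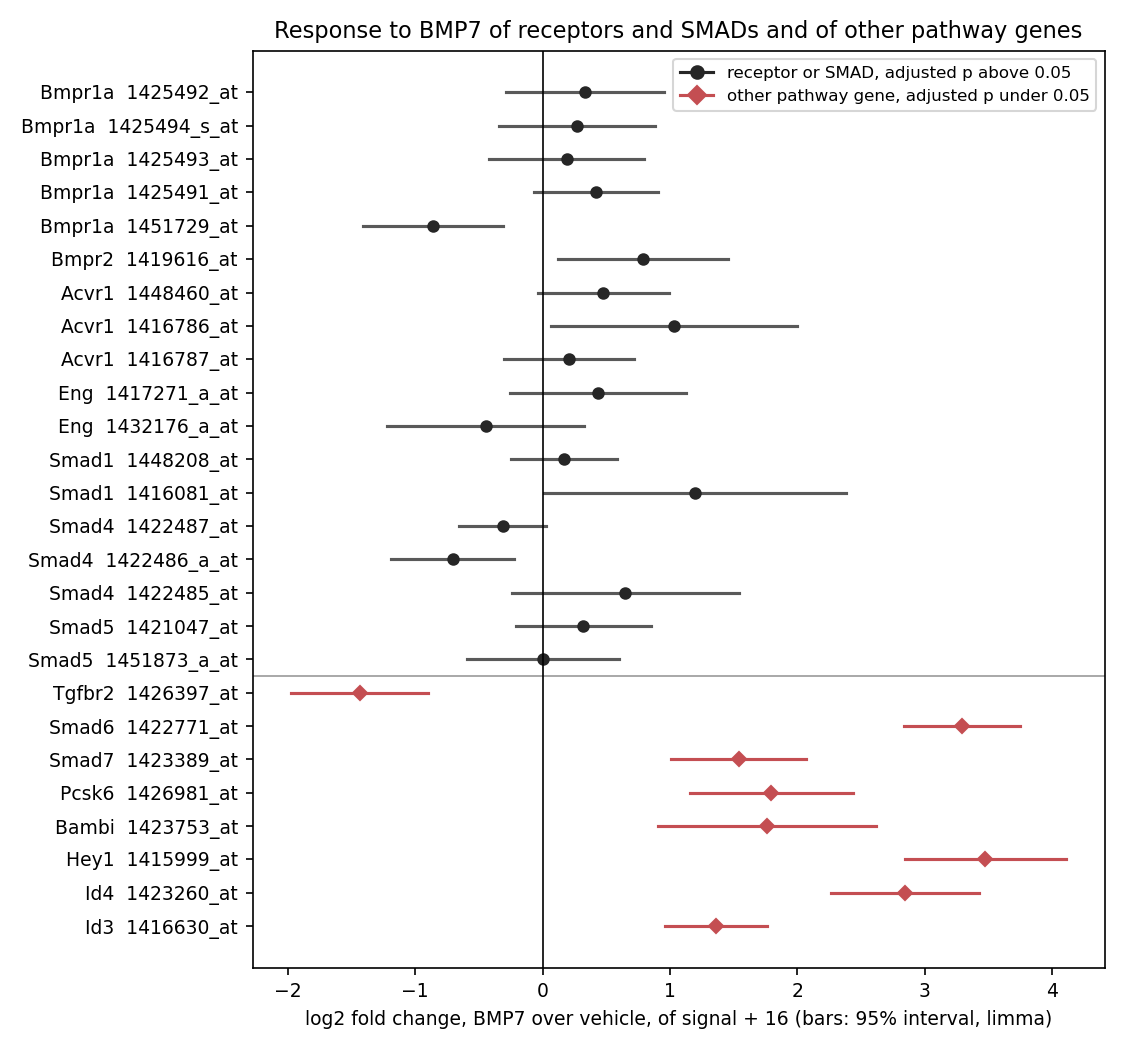
Log2 fold change of BMP7 over vehicle (horizontal axis, on signal + 16) with its 95% interval from limma, for the 18 tested receptor and SMAD probe sets (black circles) and the 8 other pathway genes named by rule (red diamonds). The black intervals have centres from -0.86 to 1.19, and 5 of the 18 exclude 0 before any adjustment for multiple tests, while the red ones reach -1.44 for Tgfbr2 and 3.48 for Hey1.

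Start-site sequences of 3 of the genes and of Smad6 are printed to set genes that did not pass the test beside the SMAD gene that rose most. RefSeq windows of GRCm38.p6, 250 bases before to 50 after an annotated start, were found by symbol for 8 of the 10 genes (12 windows) and for 5 of the 8 other named pathway genes. Each 300-base window was searched on both strands for 6 motifs. They were GTCTAGAC, a palindrome that SMAD3 and SMAD4 bind in vitro, CAGAC, the short SMAD box, and the GC-rich motifs GGCGCC and the related GGAGCC, followed by GCCGNCGC and GGCGCGCC, which can overlap one another. The first 2 and GGCGCC are shown, and these 3 motifs and the 4 genes were picked after the matches had been seen, so that the choice itself supports nothing. The sequences below run 5' to 3' on the strand of the gene, to 10 bases after the start, with matches to these motifs in capitals.
Bmpr1a, chr14:34502537-34502796, - strand: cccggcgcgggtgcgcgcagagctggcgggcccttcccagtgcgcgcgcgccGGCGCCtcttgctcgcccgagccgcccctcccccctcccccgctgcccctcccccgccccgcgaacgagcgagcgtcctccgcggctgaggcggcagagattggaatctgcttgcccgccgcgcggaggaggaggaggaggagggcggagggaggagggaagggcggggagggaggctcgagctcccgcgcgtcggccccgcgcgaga
Bmpr2, chr1:59764029-59764288, + strand: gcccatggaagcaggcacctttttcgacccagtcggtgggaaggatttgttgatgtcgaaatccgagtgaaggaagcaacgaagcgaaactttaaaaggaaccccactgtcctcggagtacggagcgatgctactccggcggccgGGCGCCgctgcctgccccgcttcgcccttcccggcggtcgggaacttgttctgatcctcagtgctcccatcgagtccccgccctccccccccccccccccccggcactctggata
Smad1, chr8:79399419-79399678, - strand: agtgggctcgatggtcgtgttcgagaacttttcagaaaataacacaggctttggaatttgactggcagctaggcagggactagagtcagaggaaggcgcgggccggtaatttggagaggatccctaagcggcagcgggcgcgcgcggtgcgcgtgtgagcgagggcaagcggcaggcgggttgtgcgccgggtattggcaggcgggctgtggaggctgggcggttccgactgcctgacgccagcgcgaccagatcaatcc
Smad6, chr9:64022050-64022309, - strand: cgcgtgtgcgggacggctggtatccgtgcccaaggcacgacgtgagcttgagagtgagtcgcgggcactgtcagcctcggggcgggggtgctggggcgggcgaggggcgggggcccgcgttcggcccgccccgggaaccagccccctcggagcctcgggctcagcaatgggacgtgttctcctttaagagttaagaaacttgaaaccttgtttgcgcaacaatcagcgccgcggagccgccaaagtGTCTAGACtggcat
GTCTAGAC stood in the Smad6 window, beginning 4 bases before the start. That was 1 of the 5 windows of the other named pathway genes, and those of Id3, Id4, Pcsk6 and Tgfbr2 lacked it. The motif stood in none of the 12 receptor and SMAD windows, and in 0.213% of all 32851 windows. GGCGCC stood in 4 of the 12, those of Bmpr1a, Bmpr2 and Smad5, against 11.9% of all windows, and began 198 bases before the start in Bmpr1a and 105 before it in Bmpr2. CAGAC stood in 5 of the 12, in Acvr2b, Bmpr1b, Eng and Smad5, against 49.6% of all windows. The Smad1 window held none of the 3 motifs. GGAGCC stood in 5 of the 12 (30.8% of all windows), GCCGNCGC in 4 (9.76%) and GGCGCGCC in 0 (1.39%). These matches describe letters only, and no binding was measured in these samples.

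Bmpr1a, a type I receptor that binds several BMPs, lies on chromosome 14 and has 5 probe sets, all of them tested. The probe set 1425492_at gave 4025, 2911, 1412 and 2155.5 on Vehicle 1 to 4 and 3431, 2945, 3074 and 2902 on BMP7 1 to 4. The BMP7 arrays lay close together and inside the range of the vehicle arrays, of which Vehicle 3 was the lowest. The difference was 1.26-fold (95% interval 0.818 to 1.94, adjusted p 0.513 in limma). The sets 1425494_s_at, 1425493_at and 1425491_at had log2 fold changes of 0.27, 0.19 and 0.42 (adjusted p 0.294 to 0.717), and their vehicle arrays also had Vehicle 3 as the lowest, at 884 to 889.5. Without Vehicle 3 the 4 values were 0.070, -0.024, -0.080 and 0.28, so that the direction of 1425494_s_at and 1425493_at turned. With array weights it turned for these and for 1425492_at. A set ending _s_at can also pick up related transcripts.

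The fifth Bmpr1a probe set, 1451729_at, went the other way. It gave 480, 797, 649.7 and 589 on Vehicle 1 to 4 against 268, 407, 331 and 341 on BMP7 1 to 4. Every BMP7 array lay below every vehicle array, and Vehicle 3 was not unusual. The mean went from 629 ± 132 to 337 ± 57.0 (SD, n = 4), a 1.82-fold lower signal (log2 fold change -0.86 ± 0.25 SE, adjusted p 0.0860 in limma). The authors' deposited table gives this probe set a ratio of 0.535 and a p of 0.0148. Under the alternatives run the log2 fold change stayed between -0.98 and -0.68 with an adjusted p of 0.0607 or more (it was not tested at the 60th-percentile filter), and it was -0.84 without Vehicle 3. The difference between this set and 1425491_at within an array, on the log2 scale, was 0.92 ± 0.34 on the vehicle and 2.20 ± 0.27 on the BMP7 arrays, without overlap. The deposited table lists the same representative sequence for all 5 sets. Which transcript forms of Bmpr1a each set picks up is not given.

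Acvr1, a type I receptor that is a main partner of BMP7, lies on chromosome 2 and has 3 probe sets, all tested and all with a higher mean in BMP7 cells. The probe set 1416786_at gave 1007, 973, 219 and 1192 on Vehicle 1 to 4 and 1664, 1386, 1367 and 1527 on BMP7 1 to 4. All BMP7 arrays lay above all vehicle arrays, and Vehicle 3 lay far below the other vehicle arrays. The difference was 2.04-fold over all 8 arrays (log2 fold change 1.03 ± 0.44 SE, adjusted p 0.205 in limma) and 1.40-fold without Vehicle 3 (adjusted p 0.115). For 1448460_at the signals were 2287, 2885, 1327 and 2234 with vehicle and 3121, 2985, 2771 and 2873.5 with BMP7. Vehicle 3 was again the lowest, and Vehicle 2 reached into the range of the BMP7 arrays. That set had a log2 fold change of 0.48 (adjusted p 0.256), and 0.26 without Vehicle 3. The third set, 1416787_at, had 548 ± 91.3 and 638 ± 121, a 1.16-fold difference with a 95% interval of 0.812 to 1.65.

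Bmpr2, the type II receptor that serves BMPs most specifically, lies on chromosome 1 and has 1 probe set, 1419616_at. Its signals were 329, 323.5, 352 and 723 on Vehicle 1 to 4 and 619, 882.5, 551 and 859.7 on BMP7 1 to 4. Vehicle 4 lay among the BMP7 arrays, and the other vehicle arrays lay below all of them. The mean went from 432 ± 194 to 728 ± 168, 1.73-fold on the log2(signal + 16) scale (95% interval 1.09 to 2.75, adjusted p 0.167 in limma). Without Vehicle 4 the log2 fold change was 1.06 and the adjusted p 0.0375, where 7.98% of all tested probe sets were called. In none of the other alternatives did Bmpr2 pass.

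Bmpr1b, Acvr2b and Acvrl1 have 1 probe set each, and all of them lay under the filter and were not tested. Bmpr1b, a type I receptor known from condensing cartilage, on chromosome 3, gave 185, 184, 160.3 and 339 on Vehicle 1 to 4 and 144, 41.9, 115 and 95.8 on BMP7 1 to 4. All BMP7 arrays lay below all vehicle arrays, as in 5.60% of all probe sets, and the exact two-sided permutation p was 0.0286, the smallest that 4 against 4 arrays can give. Its mean was 2.08-fold lower, on signals too low to bear a fold firmly, and with no filter limma gave an adjusted p of 0.25. Acvr2b, a type II receptor for activins and BMPs on chromosome 9, gave 152 to 390.5 with vehicle and 58.0 to 250.1 with BMP7 (exact permutation p 0.229). Acvrl1, on chromosome 15, is best known as the type I receptor of endothelial cells. It gave 88.7 to 323 with vehicle and 60 to 180.5 with BMP7 (exact permutation p 0.257). The groups overlapped for both genes. Without Vehicle 3 the log2 fold change of Acvr2b went from -0.68 to -0.48 and that of Acvrl1 from -0.60 to -0.41. No detection calls were used, so whether these transcripts were present at all is not settled by the signals.

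Eng encodes endoglin, a co-receptor of the TGF-beta family that endothelial and some mesenchymal cells carry, and lies on chromosome 2. Its probe set 1417271_a_at gave 1125, 417, 1085 and 1117 on Vehicle 1 to 4 and 1397, 1140.3, 949 and 1284 on BMP7 1 to 4. Vehicle 2 lay far below all other arrays, and the rest overlapped. The difference was 1.35-fold (95% interval 0.835 to 2.18, adjusted p 0.443 in limma). Without Vehicle 2 the log2 fold change went from 0.43 to 0.089 (adjusted p 0.821). The other set, 1432176_a_at, had 484 ± 153 and 364 ± 160, a log2 fold change of -0.45 in the opposite direction (adjusted p 0.478). Of the 10 endothelial markers Kdr was the one tested, and it did not pass in limma. The other 9, Pecam1, Cdh5 and Vwf among them, lay under the filter.

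Smad1, a receptor-regulated SMAD on chromosome 8, has 2 probe sets. The set 1448208_at gave 2079, 2736, 2295 and 2536 on Vehicle 1 to 4 and 2359, 2578, 2533 and 3456 on BMP7 1 to 4. The groups overlapped widely and no array stood out except BMP7 4, the highest. The ratio was 1.13-fold with a 95% interval of 0.844 to 1.5 (adjusted p 0.621 in limma). The set 1416081_at gave 859.6, 432, 88.4 and 636 with vehicle and 719.8, 979, 975 and 995 with BMP7. Vehicle 3 was more than 4 times lower than the next array here, and Vehicle 1 reached into the BMP7 range. Over all 8 arrays the log2 fold change was 1.19 ± 0.54 SE (adjusted p 0.226), and without Vehicle 3 it was 0.54 (adjusted p 0.219).

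Smad5, the other receptor-regulated SMAD among the genes described, lies on chromosome 13. Its set 1421047_at gave 1163, 1086, 671 and 1470 on Vehicle 1 to 4 and 1213.5, 1320, 1506 and 1272 on BMP7 1 to 4. Vehicle 3 was the lowest array, and the others overlapped. The log2 fold change was 0.32 ± 0.24 SE (adjusted p 0.460 in limma), and 0.11 without Vehicle 3. The set 1451873_a_at had 629 ± 96.4 and 654 ± 240, with a log2 fold change of 0.0035 and a 95% interval of -0.59 to 0.60 on that scale, and its sign turned under quantile normalization and array weights and without some arrays.

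Smad4, the common partner of all receptor-regulated SMADs, lies on chromosome 18 and has 3 probe sets that did not move together. The set 1422487_at gave 6211, 7871, 7166 and 6902 on Vehicle 1 to 4 and 5495, 5655, 5853 and 5538 on BMP7 1 to 4. All BMP7 arrays lay below all vehicle arrays by a small margin, 1.24-fold in the mean (log2 fold change -0.32 ± 0.15 SE, adjusted p 0.258 in limma, and p 0.0234 in the authors' deposited table, unadjusted). The set 1422486_a_at gave 4641, 5194, 7343 and 3960 with vehicle and 3738, 2673, 3408 and 2886 with BMP7. The groups were again apart, and here Vehicle 3 was the highest array. It was 1.63-fold lower with BMP7 (log2 fold change -0.71 ± 0.22 SE, adjusted p 0.103), and the log2 fold change was -0.54 without Vehicle 3. That set passed without Vehicle 4 (log2 fold change -0.83, adjusted p 0.0493) and with array weights (-0.58, adjusted p 0.0366), where 13.1% of all tested probe sets were called, and under no other alternative.

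The third Smad4 set, 1422485_at, gave 2627, 2978, 912 and 4781 on Vehicle 1 to 4 and 3033, 3810, 4247.1 and 4247.7 on BMP7 1 to 4. Vehicle 3 was the lowest array and Vehicle 4 the highest, with the BMP7 arrays between them. The log2 fold change was 0.65 ± 0.41 SE (adjusted p 0.370 in limma), and 0.18 without Vehicle 3. Smad4 thus had 2 probe sets lower and 1 higher in BMP7 cells, and none of these differences passed.

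**Figure D3:**
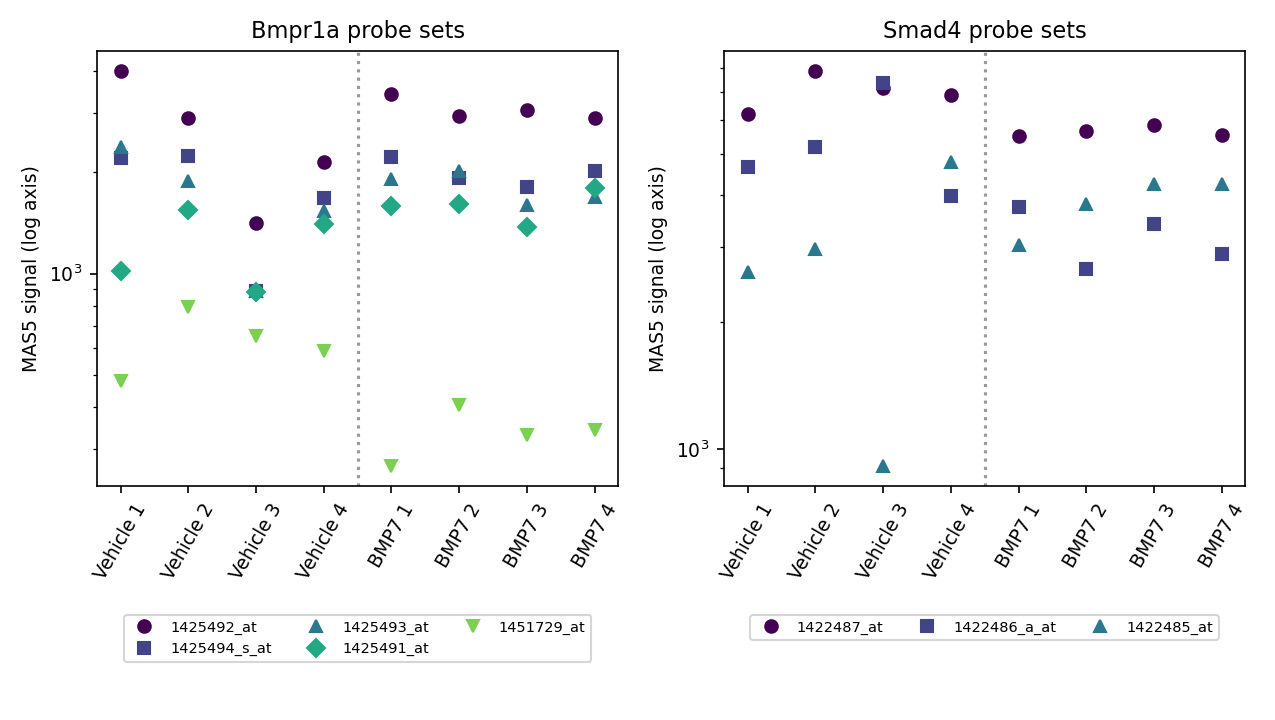
MAS5 signal (vertical log axis) of the 5 Bmpr1a and the 3 Smad4 probe sets on each array, 1 marker shape per probe set, with vehicle arrays left and BMP7 arrays right of the dotted line. Bmpr1a 1451729_at, Smad4 1422486_a_at and, by a small margin, Smad4 1422487_at are lower on all BMP7 arrays than on any vehicle array. The other Bmpr1a sets and Smad4 1422485_at show a low Vehicle 3 and no separation of the groups.

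Of the 6 genes with more than 1 tested probe set, Acvr1, Smad1 and Smad5 had all sets higher with BMP7, Smad5 1451873_a_at with a sign that depended on the setting, and Bmpr1a, Eng and Smad4 had sets in both directions. The groups did not overlap for 4 of the 18 tested probe sets (22.2%, against 15.4% of all tested probe sets, 8.30% above and 7.10% below). Of the 4, Acvr1 1416786_at was above and Bmpr1a 1451729_at, Smad4 1422487_at and Smad4 1422486_a_at below vehicle. The log2 difference within an array between 2 sets of a gene was free of overlap in 2 of 19 pairs (10.5%), both with Bmpr1a 1451729_at, against 8.74% of 6987 such pairs in all genes; this comparison was added after the values were seen.

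Vehicle 3 was the lowest vehicle array for 10 of the 18 tested probe sets (55.6%, against 38.9% of all tested probe sets) and the lowest of all 8 arrays for 9 (50%, against 30.9%). Without it the median log2 fold change of the 18 was 0.13 in place of 0.30, 11 and not 14 were higher with BMP7, and 15 were smaller in size. The number called stayed at 0, while 5.21% of all tested probe sets were called. The vehicle SD on the log2 scale exceeded the BMP7 SD for 14 of the 18 (77.8%, against 78.5% of all tested probe sets), with medians of 0.47 and 0.22. The part of RNA quality in these differences was not tested.

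**Figure D4:**
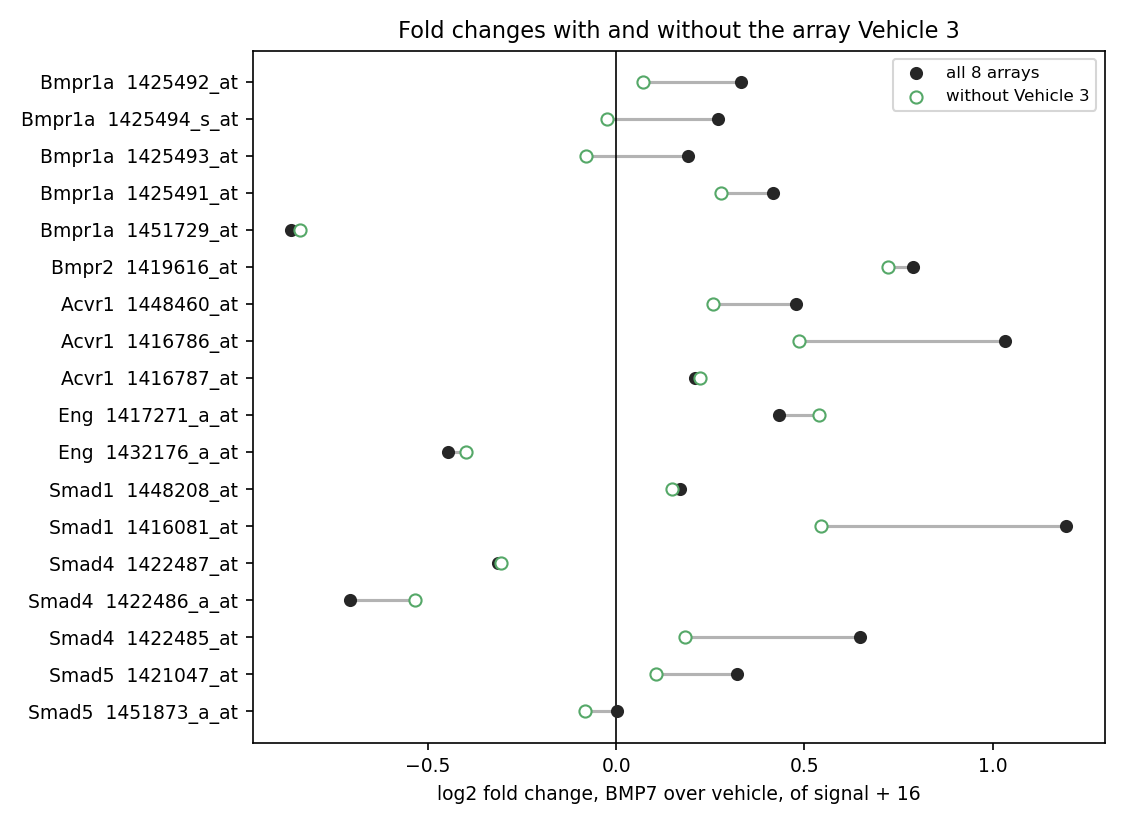
Log2 fold change of BMP7 over vehicle (horizontal axis, on signal + 16) of the 18 tested probe sets over all 8 arrays (black) and without Vehicle 3 (green rings). The shift is widest for Smad1 1416081_at, from 1.19 to 0.54, and Acvr1 1416786_at, from 1.03 to 0.49. It is near nil for Bmpr1a 1451729_at and Smad4 1422487_at, which were lower with BMP7. The same holds for Acvr1 1416787_at and Smad1 1448208_at, which were higher.

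The genes most alike in pattern were taken as those with the highest Pearson correlation of log2(signal + 16) over the 8 arrays, which share group, array and RNA quality. For Bmpr1a 1425492_at they were Hprt (r = 0.97), Psmd6 (0.96) and Alg2 (0.96). For Bmpr2 they were Notum, Acaca and N4bp1 (0.97 each), and for Smad1 1448208_at they included Rbmxl1 (0.96) and Tcim (0.91). With 8 arrays and 8374 genes, correlations of this height are a description only.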

How the data were processed

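Per the submitters' processing notes the authors made the values with MAS5; its version, detection calls and scaling target stay unstated here. Each sample's intensity values came from the series matrix, whose columns carry the sample accessions. They are linear, and the mean without the highest and lowest 2% was 1500.4 to 1500.7 on every array. The deposited table gave the annotation, and its group mean intensities matched the means of the labelled groups. It also gave a ratio of means and a p-value per probe set, per the file headers. Its 8 per-sample columns carry no sample name and were not used. Symbols were updated through Entrez identifiers in RefSeq (GRCm38.p6) for 20828 of 21454 single-gene probe sets, while the 10 genes were found by the file's symbol; chromosomes are the table's.

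Groups were compared with limma 3.58.1 (R 4.3.3; lmFit, eBayes with an intensity trend, two-sided) on log2(signal + 16), whose fold changes understate those of low signals. Neighbours enter with their brightest tested probe set. Array number, 4 per group, limits the precision. The 10 genes, the lists and the rules were chosen with earlier results of these data known. Named were all probe sets of the 10 genes, in each role group the called genes with the 3 steepest rises and 3 steepest falls, and the 3 genes most alike to Bmpr1a, Bmpr2 and Smad1, of which 1 is not reported here. Alternatives were quantile normalization, other filters and pseudocounts (1 and 64), no trend, array weights, the replicate number as a block, leaving out each array, and the authors' p-value. Same-numbered arrays correlated at 0.0365 to 0.383 in their deviations from group means, not all over 0.1, so the numbers were not taken to pair them.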

Additional observations from a re-analysis of the deposited data

Results flagged for a closer look

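A value was flagged as far from the other 3 of its group by Dixon's ratio of gap to range, on the log2(signal + 16) scale. The ratio had to exceed its 95% critical value. This happened in 4 of 42 groups (21 probe sets, 2 groups each), where chance flags about 1 in 20. The share over all probe sets of the array was not computed, so the count cannot be called particular to these genes. For Bmpr2 1419616_at Vehicle 4 was the highest of its group (ratio 0.896). For Acvr1 1416786_at Vehicle 3 was the lowest (0.878). For Eng 1417271_a_at Vehicle 2 was the lowest (0.963). For Smad1 1416081_at BMP7 1 was the lowest (0.936), at 719.8 against 975 to 995.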

How the results depend on the processing

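The count of receptor and SMAD probe sets past the threshold was 0 in 15 of 17 alternatives, 1 with array weights (Smad4 1422486_a_at) and 0 to 2 when 1 array was left out, the 2 being Bmpr2 1419616_at and Smad4 1422486_a_at without Vehicle 4. The count of neighbours was 9, 5 to 9 when 1 array was left out (5 without BMP7 2) and 6 to 10 otherwise. The number of genes whose probe sets shared a direction was 3, and 2 to 3 when 1 array was left out. Array weights turned the log2 fold changes of Bmpr1a 1425492_at (-0.039), 1425494_s_at (-0.016) and 1425493_at (-0.15) and of Smad5 1451873_a_at (-0.048), which quantile normalization turned too (-0.086). With 1 array left out Bmpr1a 1425494_s_at ranged from -0.024 to 0.42, 1425493_at from -0.080 to 0.39 and Smad5 1451873_a_at from -0.21 to 0.16. The cause was not tested. The replicate block called 652 probe sets in place of 425, among them 0 receptor or SMAD probe sets and 10 neighbours, and 7 of 8 arrays correlated best with their own number, a hint from the data and not the design. Signals well under the filter limit Bmpr1b, Acvr2b and Acvrl1.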
